A study of Rattus norvegicus with 22 samples.

Results

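Adipocytes store fat in the tongue as small lobules and strands between bundles of skeletal muscle and around the glands. A white adipocyte holds a single large lipid droplet. It takes up fatty acids freed from circulating lipoproteins, makes some of its own, packs them as triglyceride behind a coat of droplet proteins, frees them again on hormonal demand, and secretes hormones such as adiponectin and leptin into the blood. Most of these functions depend on the nuclear receptor Pparg, which drives the differentiation of fat cells.

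The genes described here are 10 of the 26583 gene names on the array and are known for this cell type: the secreted products Adipoq, Lep and Cfd, the droplet and lipolysis proteins Plin1, Cidec and Lipe, the uptake and transport proteins Lpl and Fabp4, the lipid synthesis enzyme Scd1, and the transcription factor Pparg. They were chosen by name, with no threshold on a measured value, and each was represented by its brightest probe, the one with the highest mean log2 signal over all 22 arrays. The array lists Plin1 under its older name Plin. Of the 10 genes, 9 had a single probe and Lipe had 2.

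The arrays held 11 pairs of tongue tissue, each an OSCC (oral squamous cell carcinoma) and the adjacent phenotypically normal tissue of the same male F344 rat, a widely used inbred strain. All rats had drunk water with 20 ppm of 4-NQO (4-nitroquinoline 1-oxide, a carcinogen that damages DNA) for 10 weeks, and the tissues were taken between 23 and 26 weeks after the first exposure, at an age of about 33 weeks. Both groups thus share the carcinogen, although the titles in the sample labels call every array untreated and the treatment field of the normal pieces reads none. No tissue of a rat without 4-NQO was analysed here, so the comparison is between a tumor and exposed tissue beside it, and both are bulk pieces whose mix of cell types was not controlled. Whether the difference between the groups arose from fewer cells of a type or from less RNA per cell cannot be told apart in such pieces.

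Expression is given throughout as log2 of the processed signal of a probe over the 75th percentile of its own array, so that 0 is the 75th percentile and a step of 1 is a 2-fold change. The 75th percentile ranged from 236.8 to 654.9 signal units on the normal arrays and from 338.7 to 1414 on the OSCC arrays, and 48.42 to 65.5% of probes were well above background, which is the scanner software's own call that a spot exceeded its local background. No slide held both tissues. The 11 normal arrays and the OSCC arrays of animals 4 and 9 were scanned on the first of 2 scan days and the other 9 OSCC arrays on the second, so for 9 pairs scan day and tissue changed together. The pairs of animals 21, 22, 24 and 17 were least like the rest over all probes, with correlations of 0.47, 0.21, 0.26 and 0.47 between the differences of the pair and the mean of the other pairs, against 0.76 to 0.84 for the remaining 7 pairs. A gene was called changed at a Benjamini-Hochberg adjusted p below 0.05 over all probes and a change of at least 2-fold in the paired limma fit. The median log2 difference (OSCC minus normal) over all probes was -0.24 on this scale.

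The adipocyte label was only partly borne out by its defining markers. Fabp4, Cfd, Lpl, Pparg, Scd1 and Lipe, several of which are also made by endothelium, macrophages or muscle, were detected well above background in every normal tissue and every OSCC. Adipoq, which is close to specific for fat cells, was detected in 7 of 11 normal tissues and in all 11 OSCC, and Cidec in 3 normal tissues and 8 OSCC. These counts depend on the brightness of each array, and the median 75th percentile was 587.3 in OSCC and 381.9 in normal tissue. For Adipoq the OSCC of animal 11 was detected at -4.40. The normal tissues of animals 4, 11 and 13, at -4.07, -3.97 and -4.35, were not. The counts are thus not a comparison of levels between the tissues. Plin1 was detected on 1 of the 22 arrays, the OSCC of animal 24, and Lep on 0. The 10 genes are therefore described by their names, not as a measure of the number of fat cells.

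Across the 11 pairs, 1 of the 10 genes was called, namely Scd1, which was higher in OSCC. Among all gene names with 1 probe each, 13.7% were called in either direction, 6.64% higher and 7.06% lower in OSCC, so the share among the 10 genes was near that of the array. The split depended on the scaling: 2083 called probes were higher and 2118 lower here, and 1541 of 4695 were higher with arrays scaled to their median. The median log2 difference over the 10 genes was 0.11, against -0.24 over all probes. The widest differences were not in Scd1 but in Adipoq and Cidec, whose values varied so much between animals that neither passed the test.

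**Figure D1:**
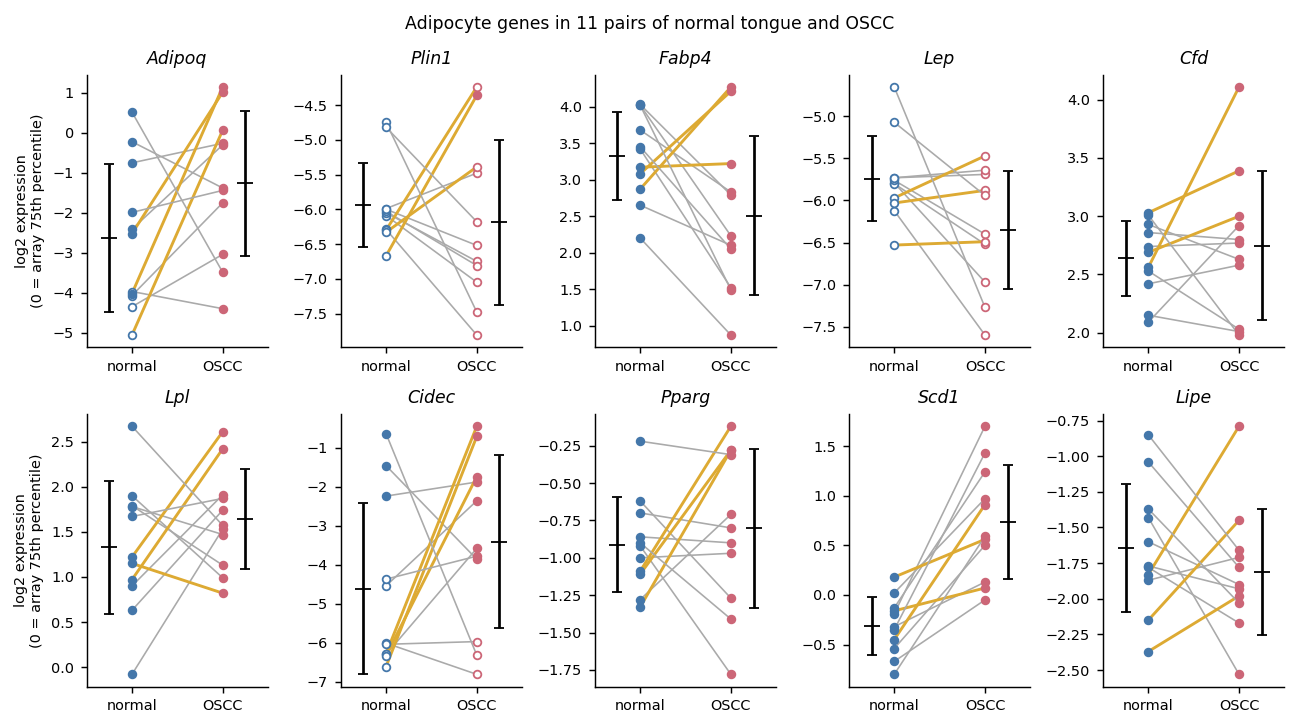
Log2 expression of the 10 adipocyte genes in normal tongue and OSCC, where 0 is the 75th percentile of the array. Each line joins the 2 tissues of 1 rat (gold for animals 21, 22 and 24), filled points were well above background and open points were not, and the black marks give the mean and SD of 11 rats. Scd1 rose in all 11 pairs, while the lines of Adipoq and Cidec ran in both directions over a range of more than 5 log2 units.

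Adipoq encodes adiponectin, a hormone that fat cells secrete in large amounts. In normal tissue its log2 expression was lowest at -5.06 in animal 22, had a median of -2.52 and was highest at 0.52 in animal 26. In OSCC the lowest value was -4.40 in animal 11, the median -1.38 and the highest 1.15 in animal 21. The ranges of both tissues overlapped almost completely, and the 3 highest normal values (animals 26, 16 and 17) came from other rats than the 3 highest OSCC values (animals 21, 24 and 22). Adipoq was higher in the OSCC of 8 rats and lower in that of 3, with pair differences from -4.02 in animal 26 to 5.17 in animal 21. The mean log2 difference was 1.37 ± 0.74 (SE, n = 11 pairs; 95% confidence interval -0.24 to 2.97), a 2.58-fold higher mean that did not pass (limma adjusted p = 0.14). Without animal 26 the difference was 1.90 and was called (adjusted p = 0.038), and without the pairs of animals 21, 22 and 24 it was 0.15. With normexp background correction the difference was 0.71 (limma adjusted p = 0.6), so its size depended on how values near background were treated.

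The probe of Adipoq lies at chr11:79908299-79908358 on the minus strand of rn4, the rat genome build named in the array files. Fat-specific transcription of Adipoq is controlled from regions that include the bases just before its start, and these are shown for Adipoq and Cidec because the values of both varied together in each tissue. Of the 10 genes, 7 had an entry in the RefSeq promoter table (build GRCr8), and the 250 bases before the start were searched on both strands for CCAAT (the core of the CCAAT box), TATAAA (the TATA box), TTGCGCAA (a palindrome bound by C/EBP factors), AGGTCA (the core site of nuclear receptors) and DR1 (AGGTCA repeated after 1 base of any kind, the form that Pparg binds with its partner receptor, so that every DR1 also holds AGGTCA). The stretch of Adipoq, at chr11:91240170-91240419 on the minus strand of GRCr8, held the CCAAT box at -69 to -65 on the reverse strand and at -42 to -38 on the forward strand, counted from the start, which are given in capitals. A CCAAT box was present in 34% of the 33469 RefSeq promoters, TATAAA in 12.9%, AGGTCA in 14.1% and DR1 in 0.0508%. The stretch of Cidec, at chr4:148137116-148137365 on the minus strand, held none of the searched letters and is in lower case throughout. Among the other members, CCAAT was found in the stretches of Plin1, Lep and Pparg, and the C/EBP palindrome, present in 0.14% of promoters, at -69 to -62 in that of Lep.
Adipoq: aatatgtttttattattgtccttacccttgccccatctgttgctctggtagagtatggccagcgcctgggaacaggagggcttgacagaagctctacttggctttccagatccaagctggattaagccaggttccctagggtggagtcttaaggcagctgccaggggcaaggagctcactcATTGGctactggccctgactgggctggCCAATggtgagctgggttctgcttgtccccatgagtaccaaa
Cidec: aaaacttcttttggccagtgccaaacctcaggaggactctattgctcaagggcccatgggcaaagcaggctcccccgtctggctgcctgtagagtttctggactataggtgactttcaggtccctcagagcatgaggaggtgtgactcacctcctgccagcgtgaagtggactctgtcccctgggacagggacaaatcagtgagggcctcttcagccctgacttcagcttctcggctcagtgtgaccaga

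Lep encodes leptin, the hormone by which fat stores signal to the brain. Its probe, at chr4:55945879-55945938 on the plus strand, exceeded its background clearly in 0 of the 22 arrays. The values at this level ranged from -6.53 to -4.65 in normal tissue and from -7.60 to -5.47 in OSCC, and no fold change is given. Leptin RNA was thus not detectable in either tissue at the signal of these arrays.

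Cfd encodes adipsin, a serine protease of the complement system that fat cells secrete, and macrophages make it as well. Its probe lies at chr7:11325547-11325604 on the minus strand. Normal values ran from 2.09 to 3.03 with a median of 2.69, and OSCC values from 1.98 to 4.11 with a median of 2.77. Apart from the OSCC of animals 24 and 21 the OSCC values lay inside or just below the normal range. Cfd was higher in the OSCC of 6 rats and lower in 5, with a mean log2 difference of 0.11 ± 0.20 (SE, n = 11 pairs; 95% interval -0.32 to 0.54; limma adjusted p = 0.66).

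Plin1 encodes perilipin, which coats the large droplet of white fat cells and gates lipolysis. Its probe lies at chr1:135497463-135497522 on the minus strand. Normal values ran from -6.67 to -4.75 and OSCC values from -7.81 to -4.24, and 21 of these 22 values were not well above background. Only the OSCC of animal 24, at -4.36, was detected, and no difference between the tissues is given at this level.

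Cidec encodes a droplet protein (also called Fsp27) that lets small droplets fuse into the single large one of a white adipocyte. In normal tissue its log2 expression ran from -6.61 to -0.64 with a median of -6.01, and only animals 26, 16 and 17 were well above background. In OSCC it ran from -6.81 to -0.45 with a median of -3.58, highest in animals 21, 24 and 22. The same rats thus led as for Adipoq in both tissues. Cidec was higher in the OSCC of 8 rats and lower in 3, with pair differences from -5.69 in animal 26 to 5.90 in animal 24. The mean log2 difference of 1.21 ± 0.95 (SE, n = 11 pairs; 95% interval -0.85 to 3.28) did not pass (limma adjusted p = 0.30). Without the pairs of animals 21, 22 and 24 it turned to -0.37 (adjusted p = 0.70). With normexp background correction the difference of Cidec was 0.30 (limma adjusted p = 0.97).

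Lipe encodes hormone-sensitive lipase, which hydrolyses diglyceride as fat is mobilised and is also active in muscle. The brighter of its 2 probes gave normal values of -2.37 to -0.85 with a median of -1.77 and OSCC values of -2.53 to -0.79 with a median of -1.90. Its mean log2 difference was -0.17 ± 0.20 (SE, n = 11 pairs; limma adjusted p = 0.48). The other probe gave 0.31 ± 0.29 (adjusted p = 0.38), and the mean of both 0.07. The probes thus differed in sign, with neither past the test, and no direction was assigned to Lipe.

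The sequences of the Lipe probes, at chr1:80667084-80667143 and chr1:80672329-80672388 on the minus strand of rn4, are shown because they disagreed, and those of Fabp4 and Cidec because they span more of the genome than their own 60 bases. The Fabp4 probe was placed at chr2:93536175-93538589 on the plus strand, a stretch of 2415 bases, and the Cidec probe at chr4:149309002-149314127 on the minus strand, a stretch of 5126 bases. As placed in the array files, neither probe is thus an unbroken stretch of the genome, as is the case for a probe across a splice junction. All 4 are given in lower case throughout, since no base was singled out.
Fabp4: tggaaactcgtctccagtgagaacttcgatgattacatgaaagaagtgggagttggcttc
Cidec: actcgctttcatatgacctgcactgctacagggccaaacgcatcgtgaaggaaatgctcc
Lipe, brighter probe: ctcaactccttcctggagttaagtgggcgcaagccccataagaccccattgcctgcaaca
Lipe, other probe: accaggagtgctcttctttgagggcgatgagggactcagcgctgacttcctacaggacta

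Lpl encodes lipoprotein lipase, which frees fatty acids from circulating triglyceride at the capillary wall and is made by fat cells, muscle and macrophages. Its probe lies at chr16:22533294-22533353 on the minus strand. Normal values ran from -0.08 to 2.67 with a median of 1.22 and OSCC values from 0.82 to 2.61 with a median of 1.57. The OSCC range lay inside the normal one. The mean log2 difference was 0.31 ± 0.29 (SE, n = 11 pairs; 95% interval -0.31 to 0.93; limma adjusted p = 0.37), with 6 pairs higher and 5 lower.

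Fabp4 encodes the fatty acid binding protein of fat cells (aP2), which capillary endothelium and macrophages also express. Normal values ran from 2.20 to 4.03 with a median of 3.42, and OSCC values from 0.87 to 4.27 with a median of 2.23. The 3 OSCC pieces with the highest values, of animals 22, 24 and 21, were the 3 in which Fabp4 was not lower than in the normal tissue of the same rat. It was lower in the OSCC of the other 8 rats, by 0.55 to 2.53 log2 units. The mean log2 difference over all pairs was -0.82 ± 0.34 (SE, n = 11 pairs; 95% interval -1.56 to -0.08), a 1.76-fold lower mean that did not pass (limma adjusted p = 0.066). Fabp4 was called lower without animal 22 (-1.04, adjusted p = 0.019), without animal 24 (-1.01, adjusted p = 0.024), and without the pairs of animals 21, 22 and 24 (-1.45, adjusted p = 0.00047). It was also called when arrays were scaled to their median (-1.02, adjusted p = 0.022).

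Scd1 encodes a stearoyl-CoA desaturase, which introduces the double bond of oleate into fatty acids made by the cell and is abundant in fat and in sebaceous cells. RefSeq now gives the gene the symbol Scd. Its probe lies at chr1:249458860-249458919 on the minus strand. Normal values ran from -0.80 to 0.18 with a median of -0.32, and OSCC values from -0.05 to 1.70 with a median of 0.59. The ranges overlapped, but Scd1 was higher in the OSCC of all 11 rats, by 0.22 in animal 22 to 1.89 in animal 9. Of all gene names, 4.26% were higher in all 11 pairs. The mean log2 difference was 1.04 ± 0.17 (SE, n = 11 pairs; 95% interval 0.67 to 1.41), a 2.06-fold rise (limma adjusted p = 0.00094), and the exact two-sided sign-flip permutation test over the 11 pairs gave p = 0.00098, the smallest it can give. The mean lay close to the 2-fold limit: without animal 9 it was 0.96 (adjusted p = 0.0027), without animal 26 it was 0.97 (adjusted p = 0.0027), and with arrays scaled to their median 0.84 (adjusted p = 0.002), none of which is 2-fold.

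Scan day moved with tissue for Scd1 as for every gene. In the 2 pairs scanned on 1 day (animals 4 and 9) the log2 difference of Scd1 was 1.63, and in the other 9 pairs 0.91 (limma adjusted p = 0.0077). With scan day as a term of the fit it was 1.63 ± 0.37 (adjusted p = 0.085). With the rat as a block, that term takes up the 9 pairs scanned on different days. The estimate then rests on animals 4 and 9 alone and repeats their value. With so few pairs, a lost call in this fit does not tell scan day from tissue. With scan day as a term 3 of the 30367 probes were called. In that fit 10931 probes had an unadjusted limma p below 0.05, as had 2 of the 10 genes. Adipoq had 2.21, Cidec 2.45 and Fabp4 -1.17 with scan day as a term, with adjusted p values of 0.38, 0.45 and 0.32.

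Scd1 is also one of the enzymes of fatty acid synthesis. In the wider list for lipid synthesis the regulator Thrsp was called higher and is described below, while Fasn and a related desaturase were not called. Fasn, the fatty acid synthase, had a log2 difference of -0.09 ± 0.15 (limma adjusted p = 0.60). The related desaturase listed as Scd on the array, now Scd2 in RefSeq, had 0.20 ± 0.12 (adjusted p = 0.19). Scd1 and Scd2 are close relatives, and how far each probe binds the RNA of the other gene was not tested.

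Pparg encodes the nuclear receptor that drives fat cell differentiation and is also made by macrophages and squamous epithelium. Its probe lies at chr4:151617128-151617187 on the plus strand. Normal values ran from -1.33 to -0.22 with a median of -0.92 and OSCC values from -1.78 to -0.12 with a median of -0.80. It was higher in the OSCC of 5 rats and lower in 6, with a mean log2 difference of 0.11 ± 0.19 (SE, n = 11 pairs; 95% interval -0.31 to 0.53; limma adjusted p = 0.66). The highest normal values were again those of animals 26, 16 and 17 and the highest OSCC values those of animals 24, 22 and 21.

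Among the 10 genes the spread between animals was widest in Adipoq and Cidec in both tissues. In normal tissue only 7 values of Adipoq and 3 of Cidec were well above background. The SD of Adipoq was 1.85 over the normal arrays and 1.82 over the OSCC arrays. Among probes well above background on at least 11 of the 22 arrays, 99.6 and 97.7% had a smaller SD. The SD of Cidec was 2.19 and 2.22, and 99.9 and 99.2% of these probes had a smaller one. The median SD of these probes was 0.26 in normal tissue and 0.44 in OSCC. The SD of Scd1, at 0.29 and 0.57, was close to that median. That of Fabp4 exceeded 91.2 and 89.8% of these probes, and that of Lpl 95 and 62.1%. Among the 8 genes other than Plin1 and Lep, which were at background, the normal tissue of animal 26 ranked among the 3 highest for 7 and that of animal 17 for 5. In OSCC, animals 22 and 24 ranked among the 3 highest for 7 of these 8 genes each and animal 21 for 5.

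The members were next compared with Adipoq across rats, within each tissue, to see which varied together. Of 18 relations (9 genes in 2 tissues), 7 passed a permutation test of Pearson's r after Benjamini-Hochberg adjustment. In normal tissue, Cidec followed Adipoq with r = 0.93 (Spearman's rho 0.84; permutation p = 9e-05, adjusted p = 0.0004; n = 11), although only 3 of these Cidec values and 7 of the Adipoq values were well above background and the rest have no order of their own. Pparg followed it with r = 0.91 (rho 0.95; permutation p = 1e-05, the smallest these permutations can give; adjusted p = 9e-05). Lpl did so with r = 0.86 (rho 0.88; permutation p = 0.00044, adjusted p = 0.0016) and Fabp4 with r = 0.78 (rho 0.88; permutation p = 0.0055, adjusted p = 0.014). Without the animals farthest from the median of Adipoq (22 and 26), r was 0.91, 0.85, 0.83 and 0.73 for these 4 genes.

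In OSCC the genes that followed Adipoq were Cidec, Cfd and Fabp4. Cidec did so with r = 0.99 (rho 0.96; permutation p = 1e-05, adjusted p = 9e-05; n = 11), Cfd with r = 0.92 (rho 0.96; permutation p = 4e-05, adjusted p = 0.00024) and Fabp4 with r = 0.83 (rho 0.89; permutation p = 0.0018, adjusted p = 0.0053). Without animals 11 and 21, r was 0.99, 0.92 and 0.87, and over the 9 OSCC arrays of the second scan day 0.99, 0.92 and 0.86. All normal arrays were scanned on the first day, and the 2 OSCC arrays of that day are too few for a value.

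Some members followed Adipoq past the threshold in 1 tissue and not in the other, a difference that was not itself tested. Cfd had r = 0.22 in normal tissue (rho 0.11; permutation p = 0.52, adjusted p = 0.65). Lpl had r = -0.04 in OSCC (rho -0.18; permutation p = 0.90, adjusted p = 0.90) and Pparg 0.56 (rho 0.62; permutation p = 0.074, adjusted p = 0.12). Scd1 had r = -0.32 in normal tissue (rho -0.49; permutation p = 0.34, adjusted p = 0.47) and -0.20 in OSCC (rho -0.31; permutation p = 0.55, adjusted p = 0.65), so neither relation of the called gene passed. Lipe, and Plin1 and Lep with values at background, did not pass in either tissue, with r from 0.47 to 0.66 in normal tissue and from 0.05 to 0.63 in OSCC and adjusted permutation p values from 0.062 to 0.90.

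**Figure D2:**
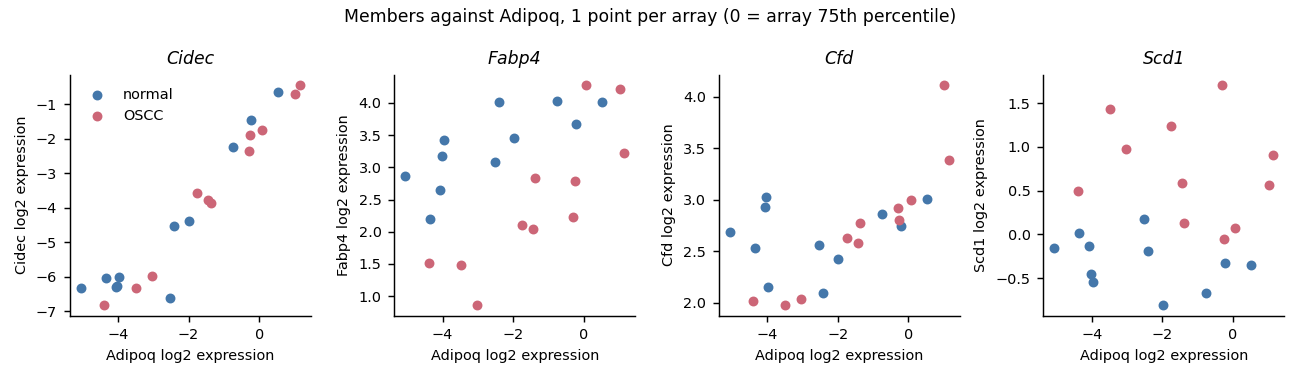
Log2 expression of Cidec, Fabp4, Cfd and Scd1 (vertical axes) against that of Adipoq (horizontal axes), with 1 point per array, blue for 11 normal tissues and red for 11 OSCC. Cidec lay along 1 line in both tissues (r = 0.93 and 0.99), Fabp4 rose with Adipoq in both but at lower values in most OSCC, Cfd rose with it in OSCC (r = 0.92), and Scd1 showed no such trend (r = -0.32 and -0.20).

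The genes whose pattern was most like that of Adipoq were found over the 22 arrays, after the mean of each tissue was subtracted, among genes well above background on at least 11 arrays. Retn, which encodes the fat cell hormone resistin, came first with r = 0.97, and Cdo1, a cysteine dioxygenase abundant in fat and liver, second with r = 0.95. Retn was well above background in only 4 normal tissues and 8 OSCC, and Cdo1 in 3 and 8. Car3, a carbonic anhydrase abundant in fat and slow muscle, had 0.89. They were followed by Hif1an (0.86), which encodes an oxygen-dependent hydroxylase, by the muscle genes Myh2 (0.85), a fast myosin heavy chain, and Vgll2 (0.84), a cofactor of muscle transcription, and by Yaf2, Mospd1, Ogn and Napa, each at 0.83. Among the members, Cidec had r = 0.96, which 1 of 14906 genes exceeded, and Fabp4 0.78, which 38 exceeded. These values are descriptive, and over all genes r had a median of -0.03, with 95% of genes between -0.72 and 0.68.

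Retn varied as widely as Adipoq, from -6.12 to -0.92 in normal tissue and from -6.10 to 0.07 in OSCC. Its mean log2 difference of 1.48 ± 0.73 did not pass over all pairs (limma adjusted p = 0.11). It was called without animal 26 (2.05, adjusted p = 0.021), as Adipoq was. With normexp background correction the difference of Retn was 0.46 (limma adjusted p = 0.77). Car3 ran from -0.95 to 3.45 in normal tissue and from -1.71 to 6.32 in OSCC, with a difference of 1.32 ± 0.74 (adjusted p = 0.16). Of these 10 genes, Myh2 was the only one called, at 2.17 ± 0.73 (adjusted p = 0.033), higher in the OSCC of 9 rats.

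Markers of other cells in the tongue are given beside the members. The 13 skeletal muscle markers, summed as linear signal in units of the array's 75th percentile, came to 1431 to 2882 in normal tissue, highest in animal 26, and to 91.2 to 3252 in OSCC. The OSCC sum was 3252 in animal 21, 3039 in animal 24, 2527 in animal 22 and 1116 in animal 17, and between 91.2 and 522 in the other 7. Thus the 3 OSCC pieces highest in Adipoq, Cidec and Fabp4 were also the 3 highest in muscle RNA, and their muscle sums were within or above the range of normal tissue. The match was only partial in normal tissue. Of the 3 normal pieces highest in Adipoq, animal 26 had 2882, animal 17 had 2391 and animal 16 had 1900. Animal 22, the lowest in Adipoq there, had 2085. Over all pairs 8 of the 13 muscle markers were called lower, such as Myh4 (-4.47) and Mb, the myoglobin gene (-2.43), and 1 higher (Myh2), with a median of -1.82. The part of muscle content in the values of the members was not tested.

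Macrophage markers ran the other way, and endothelial markers followed no such order. Of the 12 macrophage markers, 9 were called higher in OSCC, such as Cd14 (2.11), none was called lower, and the median log2 difference was 1.57. Their sum was 19.6 to 42.4 in normal tissue and 29.2 to 106 in OSCC, where animals 17, 22, 21 and 24 had the lowest values. Of the 10 endothelial markers none was called by limma or by the methods' paired test, 5 had an unadjusted p below 0.05, and 4 had an adjusted p below 0.05 and were lower, among them Pecam1 (-0.48), and the median was -0.39. Of all gene names, 43.5% had an adjusted p below 0.05 whatever their fold. In the fit with outlier spots kept, 16654 of all 30367 probes had an unadjusted p below 0.05. The sum of the endothelial markers was 14.3 to 20.5 in normal tissue and 6.04 to 20.8 in OSCC. The part of these cells in the values of Fabp4, Lpl and Cfd was not tested.

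**Figure D3:**
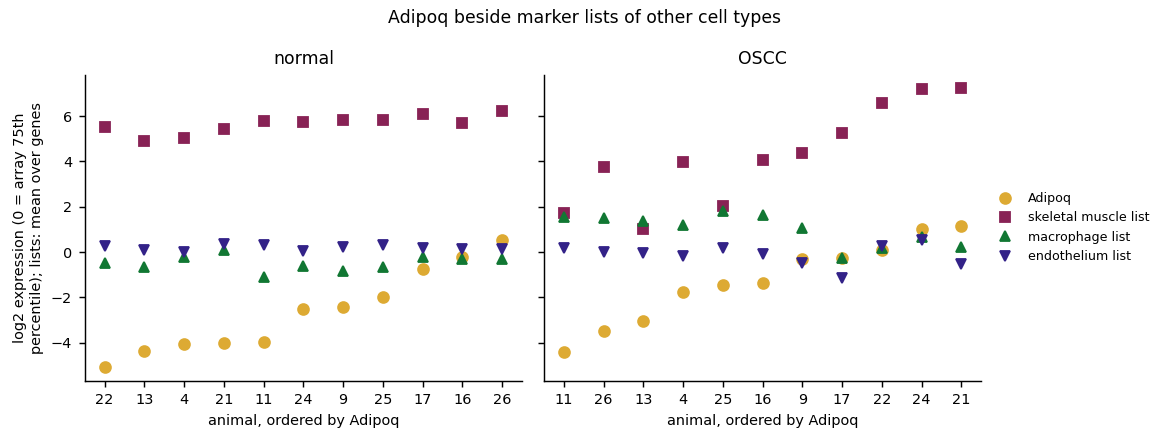
Log2 expression of Adipoq and the mean log2 expression of the muscle, macrophage and endothelial marker lists (vertical axis, 0 is the 75th percentile of the array) in each animal, ordered by Adipoq within normal tissue (left) and OSCC (right). In OSCC the 4 highest muscle values, 5.24 to 7.22, belong to the 4 animals highest in Adipoq, which also hold the 4 lowest macrophage values.

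Among the remaining markers, all 8 of serous glands were called higher in OSCC, with a median log2 difference of 8.21 and sums of 0.234 to 2.89 in normal tissue and 2.71 to 6314 in OSCC. These sums did not rank as Adipoq did: the OSCC of animal 22 had 6.57 and that of animal 24 had 3358. Of the 8 fibroblast markers 6 were called higher (median 1.19), and their OSCC sums ran from 51.4 to 452. The lowest of these sums were those of animals 17, 21, 22 and 24 (51.4, 106, 108 and 123), the same animals as for the macrophage markers. The next was 148 in animal 9. Of the 8 squamous epithelial markers 1 was called higher and 1 lower (median -0.08), with sums of 452 to 951 in normal tissue and 241 to 1005 in OSCC.

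The other genes of the members' pathways were listed by role. Of 78 genes 73 were measured, and 6 were called higher and 13 lower in OSCC, with a median log2 difference of -0.13. The shares called on the array as a whole were 6.64% and 7.06%. With arrays scaled to their median, 5 of 23 called genes were higher. With scan day as a term, where the tissue difference rests on animals 4 and 9 alone, limma called none of the 73. Of these, 13 had an unadjusted p below 0.05, as had 10931 of all 30367 probes.

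Among 9 further secreted factors and their receptors, of which Retn is one, none was called by limma or by the methods' paired test. Of these, 4 had an unadjusted p below 0.05, and the median log2 difference of the list was -0.10. In the fit with outlier spots kept, 16654 of all 30367 probes had an unadjusted p below 0.05.

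Genes of the lipid droplet and of lipolysis moved in both directions. Of 14 measured, 3 were called higher: Plin2 (listed as Adfp), the droplet coat of cells that are not adipocytes, by 1.74 ± 0.35 (limma adjusted p = 0.0026), G0s2, an inhibitor of triglyceride lipase, by 1.49 ± 0.34 (adjusted p = 0.0052), and Abhd5, a co-activator of that lipase, by 1.32. Plin2 was higher in 10 of 11 pairs, from 0.42 to 1.07 in normal tissue and from 0.93 to 3.81 in OSCC. Lower were Plin5, the coat of droplets in oxidative muscle (-3.05 ± 0.65, adjusted p = 0.0038), and Fitm1, a droplet protein of muscle (-2.40 ± 0.50, adjusted p = 0.0033). Also lower were Fitm2 (-1.01 ± 0.16, adjusted p = 0.00089) and Pnpla2, the triglyceride lipase ATGL (-1.07 ± 0.29, adjusted p = 0.013). The change of Fitm2 was only just past 2-fold. The median of this list was -0.08. Pnpla2 lay at the 2-fold limit and was below it with normexp background correction (-0.86), with the 75th percentile over detected probes (-0.98) and without each of animals 11, 13, 25 and 26 (-0.99 to -0.96).

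Lipid uptake and transport had 1 gene called higher and 4 lower of 10, with a median of -0.92. Angptl4, a secreted inhibitor of lipoprotein lipase, was higher by 1.06 ± 0.35 (limma adjusted p = 0.03), close to both limits of a call. Fabp3, the fatty acid binding protein of muscle, fell by 2.37 ± 0.55 (limma adjusted p = 0.006), with OSCC values that ran from -0.99 to 6.23 against 4.26 to 5.72 in normal tissue. Cd36, a fatty acid transporter of fat, muscle and capillaries, fell by 1.51 ± 0.41 (adjusted p = 0.014), Acsl1, which activates fatty acids, fell by 1.49 ± 0.32 (adjusted p = 0.0039), and Gpihbp1, the endothelial anchor of Lpl, fell by 1.12 ± 0.37 (adjusted p = 0.029). Each of these 4 was lower in 9 of 11 pairs. The Gpihbp1 call was lost with normexp background correction (-0.91, adjusted p = 0.08), with slide as a random block (adjusted p = 0.067), in the 9 pairs scanned on different days (adjusted p = 0.11), and without each of animals 9, 11, 16, 25 and 26 (adjusted p from 0.053 to 0.068). That of Cd36 was lost in the 9 pairs (adjusted p = 0.051).

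In lipid synthesis Thrsp, the Spot 14 regulator of lipogenesis in fat, liver and glands, was the 1 gene of 14 that was called. It ran from -6.47 to -0.76 in normal tissue and from -5.80 to 4.43 in OSCC and was higher in 10 of 11 pairs, by 4.15 ± 1.09 (limma adjusted p = 0.011). Its signal was well above background in 4 normal tissues and in 10 OSCC. The call was lost with normexp background correction (2.17, adjusted p = 0.085), in the 9 pairs scanned on different days (3.50, adjusted p = 0.065) and without the pairs of animals 21, 22 and 24 (3.08, adjusted p = 0.058).

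Of 14 transcription factors and cofactors measured, 3 were called lower, all of them known for oxidative metabolism: Ppargc1b (-1.89 ± 0.32, limma adjusted p = 0.0011), Ppara (-1.79 ± 0.37, adjusted p = 0.0029) and Ppargc1a (-1.62 ± 0.44, adjusted p = 0.013). Ppara was well above background in 3 normal tissues and in 2 OSCC, so the size of its change is uncertain. With normexp background correction Ppara had -0.34 (adjusted p = 0.82) and Ppargc1a -0.60 (adjusted p = 0.35), and neither was called. Ppargc1a was not called in the 9 pairs scanned on different days either (-1.61, adjusted p = 0.05). Cebpa, the partner of Pparg in fat cell differentiation, had 0.29 ± 0.21 (adjusted p = 0.27).

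Slc2a4, the insulin-responsive glucose transporter of fat and muscle, was the 1 called gene of 8 for the insulin and adrenergic response. It fell in all 11 pairs, from 3.37 to 4.24 in normal tissue to between -2.39 and 3.90 in OSCC, a mean difference of -2.90 ± 0.57 (limma adjusted p = 0.0025). Adrb3, the beta-adrenergic receptor of fat cells, exceeded its background clearly in 0 of the 22 arrays.

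Of the genes of brown fat, the type that burns lipid for heat, 4 were measured. Ucp1, its defining gene, did so in 0 of the 22 arrays as well. Dio2, which activates thyroid hormone, was higher by 2.12 ± 0.62 (limma adjusted p = 0.019), but it was well above background in only 1 normal tissue and 8 OSCC, and the call was lost with quantile scaling (adjusted p = 0.057), normexp background correction (0.86, adjusted p = 0.056), slide as a random block (adjusted p = 0.053) and in the 9 pairs scanned on different days (adjusted p = 0.083). Cox8b, a mitochondrial subunit that muscle also expresses, fell by 2.92 ± 0.52 (adjusted p = 0.0014). Of the 19 genes called in the wider lists, several that were lower (Plin5, Fitm1, Fabp3, Slc2a4 and Cox8b) are also genes of skeletal muscle, whose markers were lower over the same pairs, and the part of muscle in their change was not tested.

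**Figure D4:**
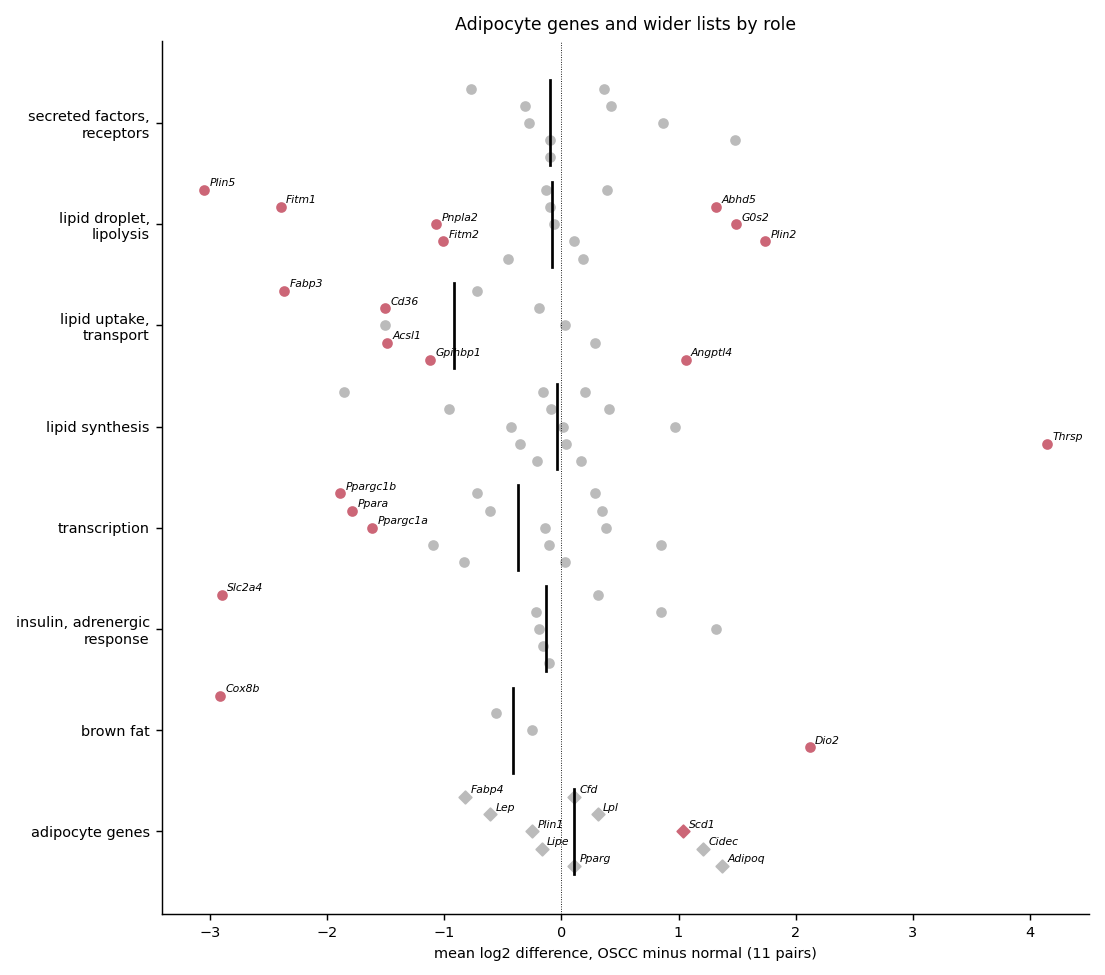
Mean log2 difference (OSCC minus normal, 11 pairs, horizontal axis) of the 73 genes of the wider lists by role and of the 10 adipocyte genes (diamonds). Red marks genes called at an adjusted p below 0.05 and at least 2-fold, grey the others, and the black bars are medians. Scd1 is the only called adipocyte gene, Thrsp lies farthest to the right at 4.15 and Plin5 farthest to the left at -3.05.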

How the data were processed

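Total RNA of each piece was hybridized to 1 rat 60-mer expression array per sample in 1 colour. The authors extracted the scanned images with Agilent Feature Extraction (version 9.5.3.1, per the file headers), and the deposited intensity is the processed signal, linear, background-subtracted and unscaled. A second table deposited by the authors holds the same values divided by each array's upper quartile, and served as an alternative. All per-sample columns used have a sample, and 0 others were left unread.

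From the processed signal, 9196 spots marked as outliers by the software (0.975%) were left out, control spots were removed, spots of a probe were averaged, and log2 minus the array's 75th percentile was taken for 30367 probes. limma 3.58.1 in R 4.3.3 fitted tissue with the rat as a block and adjusted p over all probes. The methods use a paired test, and the animal number in the labels pairs the tissues. The correlation of both tissues' deviations from their group means within a rat was -0.21 to 0.24 (median -0.025). Correlations used 100000 permutations (Python 3.11.15, numpy 2.4.6, scipy 1.17.1). On simulated data for this comparison (30299 probes) the fit called 34 of 100 changes of 1 log2 unit and 99 of 100 of 3 log2 units. A change of 1 log2 unit lies at the 2-fold limit, so its count also reflects that limit. The fit also called 3 unchanged probes. The number of arrays limits the precision.

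The members and all gene lists were chosen with earlier results of these data known. In the wider lists the called genes of largest change (at most 4 a list) and a set of defining genes are named, and Abhd5, Fitm2 and Angptl4 were named after their values were seen. Plin4, Srebf1, Insr, Prdm16 and Cox7a1 were not found by name, and 1 further listed gene is not reported here. Alternatives covered scaling, background correction, outlier spots, dim probes, slide, scan day, the test, the probe of a gene and left-out pairs.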

Additional observations from a re-analysis of the deposited data

How the results depend on the processing

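Scd1 was the 1 called member with quantile scaling, the 75th percentile over detected probes, the deposited scaled values, outlier spots kept, dim probes left out, slide as a random block, the methods' paired t-test and the mean of all probes. Without the replicate block for rat, 1 member and 20 wider genes were called, against 1 and 19. With normexp background correction 0 members, 11 wider genes and 1701 of all 30367 probes were called (Scd1 0.92, limma adjusted p = 0.0045, under 2-fold). In that fit 2 members and 6512 probes had an unadjusted p below 0.05. With scan day as a term 0 members, 0 wider genes and 3 of all 30367 probes were called. The tissue difference then rested on animals 4 and 9 alone. In the 9 pairs scanned on different days 0 members, 12 wider genes and 3415 probes were called. There 1 member and 11346 probes had an unadjusted p below 0.05. Without the pairs of animals 21, 22 and 24, limma called 3 members (Scd1, Fabp4 and Plin1 at -1.01, a probe near background) and 25 wider genes. It called 6924 of all 30367 probes there, against 2083 higher and 2118 lower over all 11 pairs. With 1 pair left out the count was 0 (without animal 9) to 2 members (without 22 or 24), 15 to 23 wider genes and 3649 to 4799 of all probes. The 7 relations with Adipoq became 7 or 8 under other scalings, alternatives chosen after seeing the data.

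Values of genes that were not called turned sign as follows. With quantile scaling Plin1, at background, was 0.17 and Adrb3 0.26. With array median scaling Cfd was -0.09, Pparg -0.09 and Scd -0.001. Pparg was -0.03 with normexp and -0.01 with scan day as a term, which is the value of the 2 pairs scanned on the same day. Cebpa was -0.25 with scan day as a term. Lipe was 0.07 as the mean of its probes. Without the pairs of animals 21, 22 and 24, Cfd was -0.13, Cidec -0.37, Pparg -0.21 and Fasn 0.02. With 1 pair left out Cfd ranged from -0.03 to 0.23, Fasn from -0.14 to 0.02 and Adrb3 from -0.39 to 0.12. The cause was not tested. The median of all probes moved from -0.24 to -0.03 with quantile scaling and -0.44 with array median scaling. Signal near background limits Plin1, Lep, Cidec, Adipoq, Retn and Cdo1, whose low values have no order.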
